A study of Danio rerio with 12 samples.

Results

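The injured zebrafish ventricle was profiled by RNA-seq 7 days post-amputation (dpa), and the 3 wild-type (WT) libraries of the 12 in the series are described here. They were taken as the libraries whose labels give a wild-type genotype. Each library pooled the ventricles of several AB-strain fish aged 5 months whose ventricular apex had been resected; these fish were siblings of the grl mutants, received no drug and carried no transgene stated in the labels. No uninjured ventricle is among these libraries, so no value separates an effect of injury from the resting level. The p-values test the ratio of paired gene copies against the spread of that ratio between these pools. They and the spreads given rest on these pools only. Expression is given as FPKM, the count scaled to gene length and to the library's total, so that genes of different length can be ranked against each other. The share of a gene list is its percentage of the summed FPKM of all genes in that library.

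A zebrafish ventricle consists of cardiomyocytes, which hold the contractile sarcomeres and most of the mitochondria, lined inside by endocardium, covered outside by epicardium, and filled with blood whose red cells are nucleated and carry RNA. After resection of the apex the wound is sealed by a clot, macrophages enter, epicardium and fibroblasts deposit matrix, and cardiomyocytes near the wound divide to replace the lost muscle. Zebrafish carry duplicates of many genes that are single in mammals, a remnant of a genome duplication in the fish lineage, and the copies are named with a final a or b. In bulk tissue, fewer cells of a type and less RNA per cell cannot be told apart, which applies to every cell type list below.

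The 3 libraries held between 13839609 and 15006574 counted reads over 32105 annotated genes (GRCz10). The threshold of 1 FPKM was reached in each library by 10912 genes, or 33.99% of the table, while 8083 genes had no read in any library. A threshold of 3 reads on a gene of 1 kb corresponded to 0.2 to 0.217 FPKM. Levels under that rest on fewer than 3 reads for a gene of this length, whereas a longer gene can hold more reads at the same level. Replicate 3 stood apart. It took 131 genes to reach 50% of its reads, against 298 in replicate 1 and 245 in replicate 2, and among genes with at least 1 FPKM in each library 83.1% had their lowest share of FPKM in replicate 3. Spearman's rho of FPKM across these genes was 0.968 between replicates 1 and 2, 0.886 between 1 and 3, and 0.926 between 2 and 3; genes are not independent replicates and these values describe the libraries only.

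The deviation of replicate 3 also moved with gene length. In the tenth of genes with the shortest models (median 929 bp) the median gene in replicate 3 lay 0.25 log2 units below the mean of the 3 libraries (a median of -0.25), and in the tenth with the longest (median 8738 bp) it lay further below, at -0.87. The opposite held for replicate 1, whose medians were 0.17 and 0.59. Shares after a correction for gene length are therefore given for haemoglobins, energy supply, myosin heavy chains, titins, fibronectins, collagens, endothelium, macrophages and antigen presentation. The part of RNA quality or library preparation in this pattern was not tested.

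**Figure D1:**
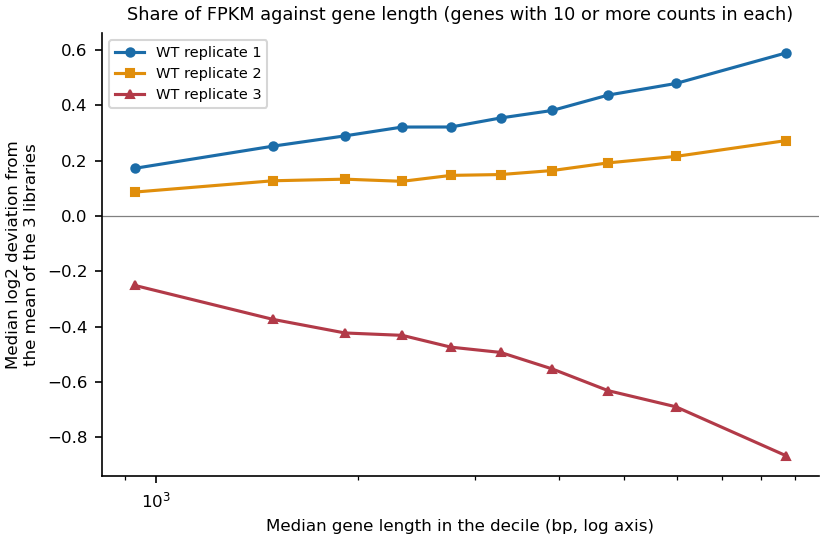
Median log2 deviation of each library's share of FPKM from the mean of the 3 libraries (vertical axis), in 10 equal groups of genes ordered by gene length (horizontal axis, bp, log scale). Points are WT replicates 1, 2 and 3; replicate 3 runs from -0.25 for the shortest genes to -0.87 for the longest, and replicate 1 from 0.17 to 0.59.

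Globins, the contractile apparatus and the mitochondrion headed the ranking by mean FPKM. The 20 genes with the highest mean took 24.5%, 28% and 34% of the summed FPKM in replicates 1, 2 and 3. Those outside the globin, cardiomyocyte and mitochondrial genome lists were gapdh (glycolysis), fth1a (iron storage), eef1a1l1 (translation elongation), RPL41 (a ribosomal protein), slc25a5 (an ADP/ATP carrier of the inner mitochondrial membrane) and si:dkey-238c7.12, for which the files give no function. Of the 100 genes with the highest mean, 41 encoded cytosolic ribosomal proteins, 13 subunits of the respiratory chain or ATP synthase, 10 were cardiomyocyte markers and 6 were globins. The order was only partly fixed: 14 genes were among the top 20 of every library and 85 among the top 100 of every library, and 3 of 19 neighbouring pairs within the top 20 kept their order in all 3 libraries.

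The first place went to si:xx-by187g17.1 (ENSDARG00000079078, chr3:54850464-54851364), a gene inside the globin cluster, with 16950.4 FPKM in replicate 1, 27216 in replicate 2 and 43892 in replicate 3. It was the most expressed gene in each library. The second, hbaa1 (an adult alpha globin, chr3:54845443-54851382), had 6486, 14973 and 21912 FPKM. The deposited interval of hbaa1 contains the whole of si:xx-by187g17.1 and overlaps a ba1 gene, so the split of reads between these 3 genes is uncertain. Their summed FPKM depends on that split too, because hbaa1, si:xx-by187g17.1 and this ba1 gene differ in length (1094, 657 and 2052 bp). The 3 genes summed to 5.12%, 8.56% and 12.4% of FPKM in replicates 1, 2 and 3.

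The next gene, cmlc1 (the ventricular and atrial essential myosin light chain), had 10864 FPKM in replicate 1, 12454 in replicate 2 and 17044 in replicate 3. Its partner myl7, the regulatory light chain used as the cardiomyocyte promoter gene cmlc2, had 7722, 7097 and 5986 FPKM. The carrier slc25a5 had 7015, 7918 and 12399.8 FPKM, gapdh 4802, 5286 and 7578, and the oxygen store myoglobin (mb) 5498, 5064 and 5189.9. Of these, mb was the steadiest in FPKM, with a coefficient of variation of 4.25%, against 23.9% for cmlc1 and 12.7% for myl7. This contrast depends on the scale, since the summed FPKM differed between libraries. As shares of it, mb held 1.02% ± 0.13, cmlc1 2.57% ± 0.356 and myl7 1.36% ± 0.296 (SD, n = 3). Relative to their means, mb and cmlc1 were then close, and myl7 varied more than cmlc1.

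**Figure D2:**
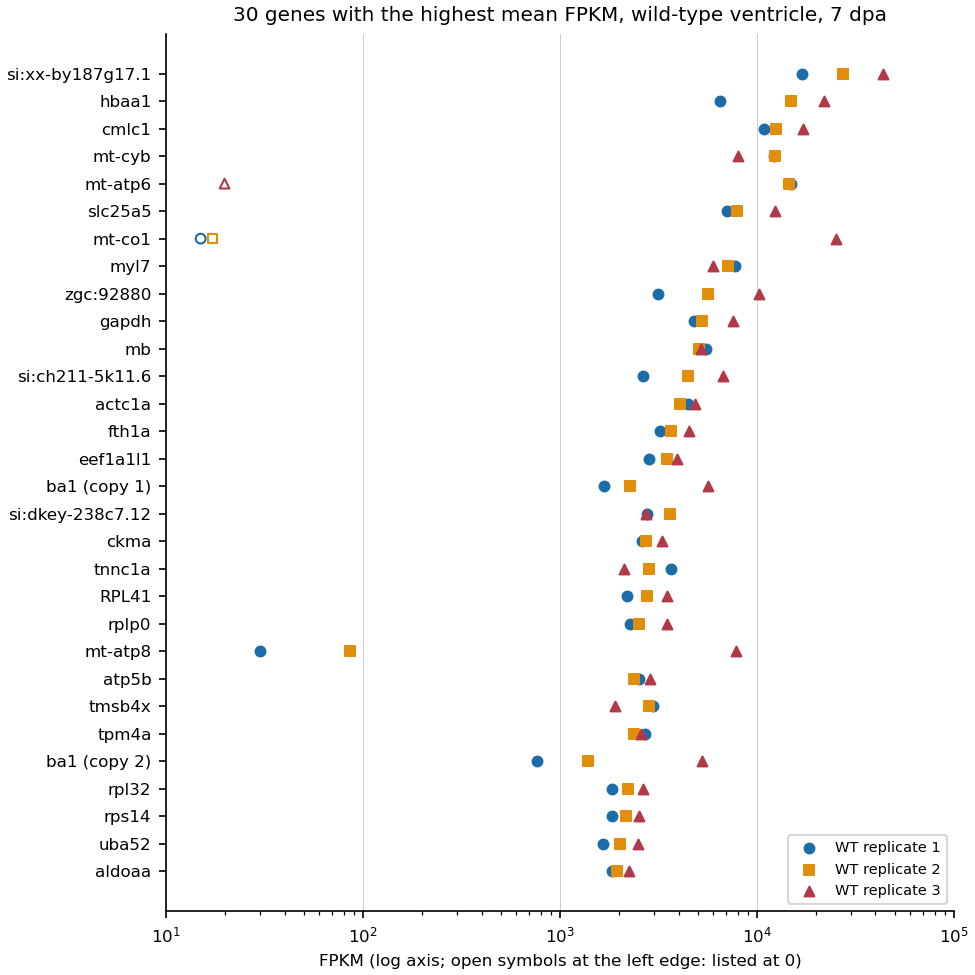
FPKM (horizontal axis, log scale) of the 30 genes with the highest mean, one row a gene, with WT replicates 1, 2 and 3 as separate symbols and open symbols for a value listed at 0. The globins span a wider range between libraries than mb or actc1a, mt-co1 is at 0 in 2 libraries and 25086 FPKM in the other, and mt-atp6 shows the reverse.

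A few functional groups accounted for much of all expression. Haemoglobins, the sarcomere, cytosolic ribosomal proteins, the mitochondrial genome, the nuclear-encoded respiratory chain with ATP synthase, and glycolysis together (293 genes) took 45.9%, 49.6% and 58.0% of summed FPKM. With the mitochondrial genome left out of both the groups and the total, the share was 42.8%, 46.9% and 55.04%. Ribosomal proteins were the largest in replicates 1, 2 and 3, at 14.5%, 15.6% and 17.08% (15.8% ± 1.27, SD, n = 3), and all 86 genes reached 1 FPKM in each library. As a share of reads, which is not scaled to length, the sarcomere list (9.38%) exceeded ribosomal proteins (8.56%) in replicate 1. The respiratory chain list held 7.58%, 7.24% and 7.39%, a spread of 1.05-fold, and glycolysis 2.75%, 2.71% and 2.99%. The sarcomere list held 8.56%, 7.58% and 7.04%, and 43 of its 46 genes found reached 1 FPKM in each library.

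Haemoglobins varied most among the large groups. Their share was 6.71%, 11% and 16.4% in replicates 1, 2 and 3 (11.4% ± 4.84, SD, n = 3), a 2.44-fold range, and 8.85% over replicates 1 and 2 alone. Haemoglobin FPKM was 0.783 times that of the sarcomere list in replicate 1, 1.45 times in replicate 2 and 2.32 times in replicate 3, so which of the groups was larger differed between libraries. It also differed between scales: as shares of reads, haemoglobins took 2.44%, 4.47% and 7.77% and the sarcomere 9.38%, 7.76% and 6.56%, so that haemoglobins were the larger in replicate 3 only. After correction for gene length the haemoglobin shares were 7.21%, 11.3% and 15.1%.

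**Figure D3:**
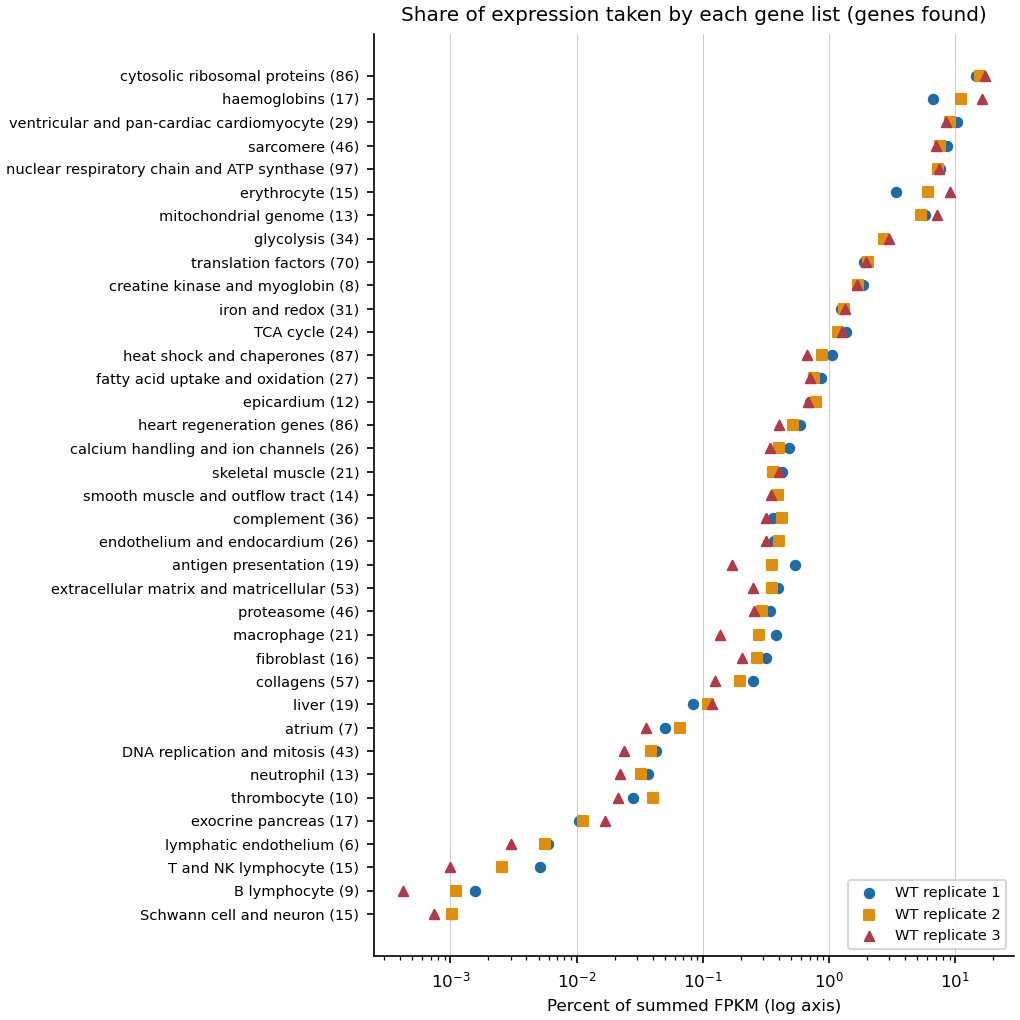
Percent of summed FPKM (horizontal axis, log scale) taken by each gene list, with the number of genes found in brackets and WT replicates 1, 2 and 3 as separate symbols. Ribosomal proteins lie between 14.5% and 17.08%, haemoglobins between 6.71% and 16.4%, and the lymphocyte and Schwann cell or neuron lists under 0.01%.

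Adult globins accounted for nearly all of the haemoglobin signal. Beyond the 2 leading genes, zgc:92880 (an adult beta globin) had 3163, 5646 and 10256 FPKM, si:ch211-5k11.6 (hbaa2, alpha) had 2645, 4456 and 6756, and the genes both named ba1 (beta) had 1672, 2275 and 5643 FPKM (ENSDARG00000097238) and 765, 1382 and 5292 FPKM (ENSDARG00000089087). The intervals of the ba1 genes overlap, so their separate values are uncertain too. These 6 genes were lowest in replicate 1 and highest in replicate 3, without exception. A gene on another chromosome, named HBZ, followed at 53.2 ± 16.2 FPKM (SD, n = 3). The embryonic globins hbbe3, hbae3 and hbbe2 were close to absent, at no more than 0.508, 0.418 and 0.49 FPKM. Of 17 haemoglobin genes found, 7 reached 1 FPKM in each library and 9 stayed under it in all.

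Other red cell genes followed the globins only in part. The 10 remaining genes of the erythrocyte list took 0.269%, 0.39% and 0.426% of FPKM. Carbonic anhydrase (cahz) had 362, 657 and 799 FPKM, alas2 (the first enzyme of erythroid haem synthesis) 408, 582 and 809, and the red cell anion exchanger slc4a1a 166, 297 and 329.6, each lowest in replicate 1. In contrast, the erythroid transcription factor klf1 had 11.81, 11.76 and 3.19 FPKM and was lowest in replicate 3, and gata1a had 16.2, 14.2 and 13 FPKM.

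The mitochondrial genome was represented by a few genes with irregular values. It took 5.75%, 5.39% and 7.16% of FPKM over its 13 protein-coding genes, yet 8 of the 13 had at most 1 count in all 3 libraries. Cytochrome b (mt-cyb) had 12271, 12414 and 8021 FPKM. The ATP synthase subunit mt-atp6 had 14872 and 14532 FPKM in replicates 1 and 2 and was listed at 0 in replicate 3, whereas the cytochrome oxidase subunit mt-co1 was listed at 0 in replicates 1 and 2 and had 25086 FPKM in replicate 3. The gene mt-atp8, which overlaps mt-atp6, had 29.9, 85.8 and 7843 FPKM. These genes are needed by every respiring cell, so a listed 0 is not read as absence of the RNA.

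Nuclear genes of energy supply were high. In share of FPKM their lists ranged between libraries by 1.05-fold for the respiratory chain, 1.1-fold for glycolysis, 1.16-fold for the TCA cycle and 1.24-fold for fatty acids. After correction for gene length the respiratory chain took 7.92%, 7.34% and 7.08%, then lowest in replicate 3. Glycolysis took 2.67%, 2.68% and 3.18%, the TCA cycle 1.33%, 1.16% and 1.34%, and fatty acids 0.835%, 0.751% and 0.744%. The ranges between libraries thus depend on this correction. Among the subunits of complexes I to V, the ATP synthase beta subunit atp5b had 2523, 2384 and 2872 FPKM and cox8b (a cytochrome oxidase subunit) 1505, 1356 and 1709. In the TCA cycle, mitochondrial malate dehydrogenase mdh2 reached 1681, 1718 and 2299 FPKM, with the list at 1.36%, 1.17% and 1.28% of expression. The fatty acid list, with the carrier protein fabp3 (723, 863 and 881 FPKM) and the dehydrogenases acadvl (518 ± 92.1 FPKM, SD, n = 3) and acadm (412 ± 20.8), took 0.865%, 0.76% and 0.7%. The glycolysis list exceeded the fatty acid list in summed FPKM in every library, and gapdh alone held more than a percent of all expression on average (1.13% ± 0.171, SD, n = 3).

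In the contractile apparatus 1 isoform usually dominated. Troponin T was nearly all tnnt2a, with 1847, 1487 and 941 FPKM, since no other of the 8 troponin T genes had a mean above 0.746 FPKM (tnnt1). Tropomyosin was led by tpm4a (2705, 2383 and 2585 FPKM), which made up 96.7%, 96.9% and 97.5% of the family. The calcium pump of the sarcoplasmic reticulum was atp2a2a (729, 686 and 928 FPKM), at 97.7%, 97.9% and 99% of its family, and its inhibitor phospholamban (pln) had 159.6, 128 and 77.1 FPKM where sarcolipin (sln) had no more than 0.335 FPKM. Among sarcomeric alpha-actinins actn2b led with 813, 558 and 271 FPKM.

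Myosin heavy chain was led by vmhcl (chr2:24618673-24633992), which lies next to vmhc on the same chromosome. It had 2349.9 FPKM in replicate 1, 1316 in replicate 2 and 421 in replicate 3, a range wider than that of any other leading sarcomere gene named here. The atrial chain myh6 was second by mean with 158, 217 and 76.8 FPKM, and vmhc was next with 124, 64.2 and 25.8. The order vmhcl, myh6, vmhc held in all 3 libraries, with vmhcl 5.48 to 14.9 times myh6, and 16.3 to 20.5 times vmhc. All 3 chains were lowest in replicate 3, in which long genes were low as a class. The whole family took 0.612%, 0.354% and 0.106% of FPKM, and 0.496%, 0.322% and 0.144% after correction for length.

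Several sarcomere proteins drew on more than 1 gene. Cardiac troponin C was led by tnnc1a (3662, 2841 and 2119.9 FPKM), but tnnc1b had 402, 1102 and 1060.5 FPKM, so that the ratio of tnnc1a to tnnc1b was 9.11 in replicate 1 and 2.58 and 2.0 in the others. Troponin I was shared by zgc:101560 (372, 319 and 298 FPKM) and tnni1b (422, 315 and 191 FPKM), whose order changed between libraries. Among actins, actc1a (cardiac alpha actin; 4457, 4072 and 4831 FPKM) exceeded acta1b (named as skeletal alpha actin; 1962, 1813 and 2231 FPKM) by 2.27, 2.25 and 2.17 times. The titin genes ttna and ttnb, which overlap on the genome, had 12.6 ± 7.05 and 11.82 ± 6.69 FPKM (SD, n = 3) and cannot be separated with confidence. Together the titins took 0.00785%, 0.00516% and 0.00172% of FPKM, and 0.00617%, 0.00459% and 0.00252% after correction for length. The correction was held constant beyond the median of its longest group of genes. Titin models are far longer (median 99757.5 bp), so their values may be corrected only in part.

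Enzyme families showed the same kind of leadership. Muscle creatine kinase ckma (2604, 2745 and 3316 FPKM) exceeded ckmb by 95.3 to 120 times, slc25a5 exceeded slc25a4 by 265 to 683 times, and ferritin heavy chain fth1a (3209, 3656 and 4542 FPKM) made up 97.4% to 98.5% of its family. Lactate dehydrogenase was mainly ldhba, the heart-type subunit, with 1052, 1199 and 1388 FPKM, against 318, 278 and 174 for ldha and 3.35 ± 0.282 (SD, n = 3) for ldhbb. Aldolase was divided, with aldoaa at 1.55 to 1.59 times aldoab. The natriuretic peptide nppa (1336, 1787 and 1213 FPKM) exceeded nppb by 6.64 to 8.91 times.

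Of 51 families with at least 2 genes found, 44 had the same leading gene in all 3 libraries. In 9 the leader held at least 90% of the family's FPKM in each library, and in 8 it held under 50% in each. Families with no clear leader included keratins (krt94, krt15 and krt8), cathepsins, connexins (led by cx41.8 at 23.4 ± 10.1 FPKM, with cx45.6 at 18.4 ± 0.9) and C1q. The major gap junction gene of mammalian ventricle has its fish counterpart in cx43, which had 3.03, 2.4 and 1.27 FPKM.

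**Figure D4:**
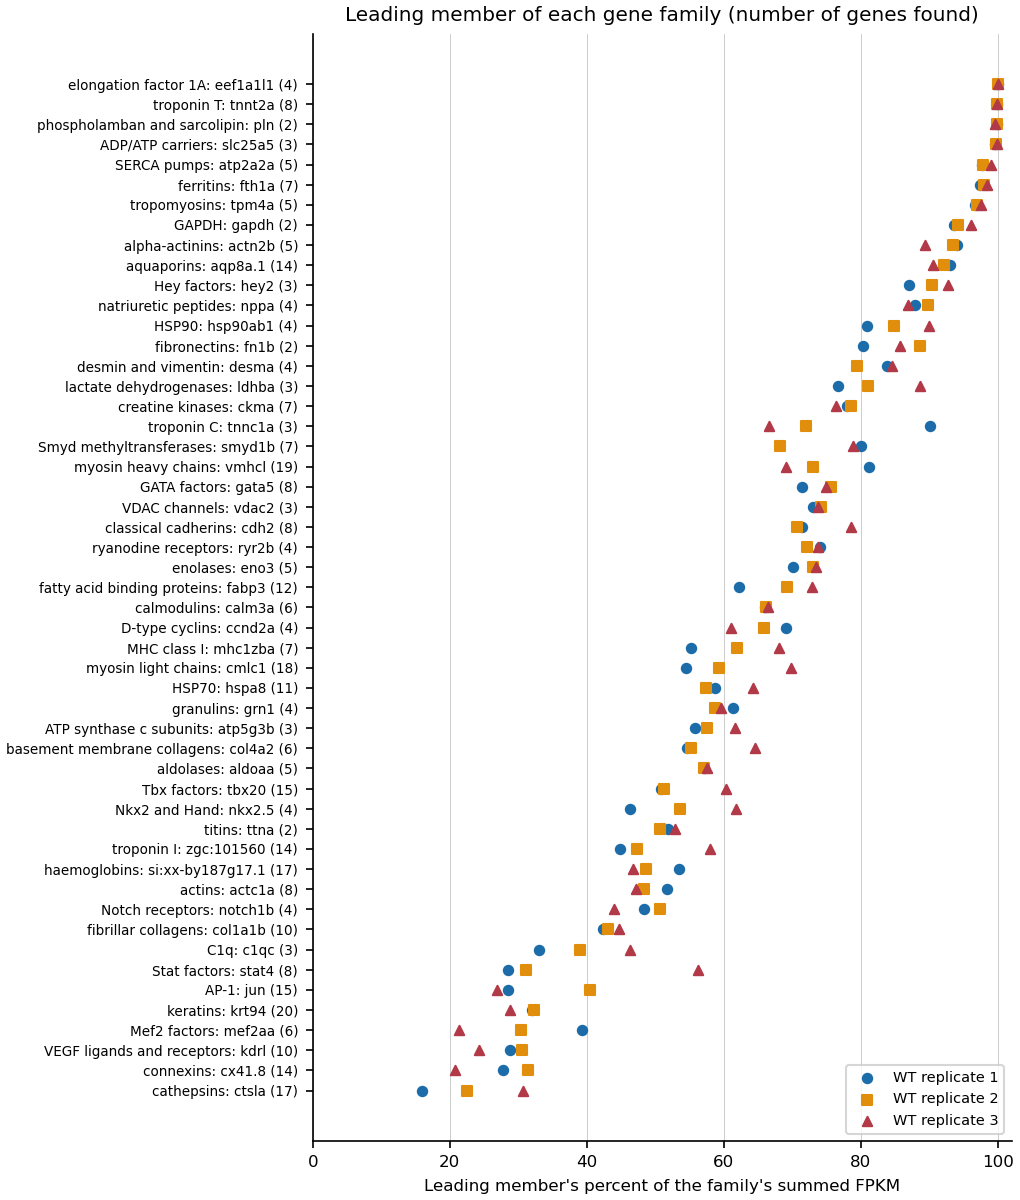
Share of each family's summed FPKM held by its leading gene (horizontal axis, percent), with the leader's symbol and the number of genes found, for WT replicates 1, 2 and 3. Leaders such as eef1a1l1, tnnt2a and slc25a5 exceed 99% in every library, while cathepsins, connexins and keratins have leaders under 35%.

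The a and b copies of duplicated genes were then compared across the whole table. The ratio of the copies within each library was tested against 1 with limma on log2(FPKM + 1), two-sided, for the 1858 pairs of symbols that differ only in a final a or b and in which either copy had a mean of at least 1 FPKM. At an adjusted p under 0.05 and a difference of at least 2-fold, 1181 pairs were called (63.6%), 637 with the a copy higher (34.3%) and 544 with the b copy higher (29.3%). In all 1181 the direction was the same in each of the 3 libraries, which the call over these same libraries makes likely. Of all 1858 pairs tested, 180 did not keep the same order in the 3 libraries. A single copy held at least 90% of the pair's FPKM in 658 pairs, or 35.4%. Both shares are raised by the entry rule, since a pair could enter through its higher copy alone. Where both copies had to average 1 FPKM, 554 of 1102 pairs were called (50.3%). The share held by a single copy was not worked out for that set. The set contains symbols that end in a and b for other reasons, such as subunits; among pairs whose gene descriptions differ in nothing but a lower-case a or b, 1047 of 1624 were called (64.5%).

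The 10 called pairs with the largest ratios included several muscle genes. For actc1a and actc1b the means were 4454 and 3.04 FPKM, with a log2 ratio of 10.16 (SE 0.19; limma, adjusted p = 3.3e-07). For tnnt2a and tnnt2b they were 1425 and 0.3 FPKM (log2 ratio 10.06, SE 0.17; adjusted p = 3.2e-07). The others were anxa2a, slc25a3b, desma (muscle desmin; 446, 431 and 572 FPKM against at most 0.566 for desmb), fabp11a, tpm4a and sepp1a, together with cycsb and ndufs8a, whose copies cycsa and ndufs8b were listed at 0 in every library. A ratio to a copy at or near 0 depends on the added 1 FPKM and is not a fold difference, and the order of these pairs changed with an added 0.1 FPKM.

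Other pairs were called at moderate ratios. The a copy led in tnnc1a against tnnc1b (log2 ratio 1.85, SE 0.41; limma, adjusted p = 0.0051), fli1a against fli1b and cd74a against cd74b. The b copy led in fn1b (225 ± 36.5 FPKM against 39.8 ± 10.3 for fn1a, SD, n = 3), postnb (77.5 ± 17.11 against 18.9 ± 11.6 for postna), notch1b (20.7 ± 8.56 against 3.89 for notch1a) and atp5g3b. In 11 of the 200 most expressed pairs the means lay within 1.1-fold of each other and none of these was called: among them rpl5a and rpl5b had 1150.5 and 1261 FPKM (limma, adjusted p = 0.47), hadhaa and hadhab, the mitochondrial trifunctional protein alpha genes, 101 and 108 FPKM (0.57), and hmgb2a and hmgb2b 79.4 and 74.4 FPKM (0.56). A p above the threshold does not show that the copies are equal.

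Markers of ventricular muscle were all present, and those of unrelated organs were low. All 29 cardiomyocyte genes found reached 1 FPKM in each library, and the list took 10.2%, 9.07% and 8.43% of FPKM. The pan-cardiac transcription factors nkx2.5 and hand2 had 95.7, 87.4 and 64.5 FPKM, and 110.3, 75.3 and 39.5 FPKM. Of 21 skeletal muscle genes 3 reached 1 FPKM in each library, led by acta1b; without it the list took 0.00665%, 0.00644% and 0.00881%. Of 19 liver genes 3 did so, of which rbp4 (a retinol carrier; 321, 504 and 617 FPKM) gave most of the signal, and without rbp4 the list took 0.0161%, 0.0106% and 0.0103%. In the exocrine pancreas list ctrb1 had 38.9, 39.3 and 80.3 FPKM while the rest summed to 0.00228%, 0.00343% and 0.00285%. No member of the Schwann cell and neuron list reached 1 FPKM in each library; mpz, a myelin gene, came closest with 1.42, 1.23 and 0.935 FPKM, and th had no read.

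Atrial markers were mixed. The atrial gene myh6 was the second myosin heavy chain , and mybphb had 48.4, 90.3 and 112 FPKM. The transcription factors nr2f1a and nr2f2 had 12, 12.4 and 7.63, and 7.17, 4.35 and 1.67 FPKM, whereas myl4 stayed at 0.663 FPKM or less.

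**Figure D5:**
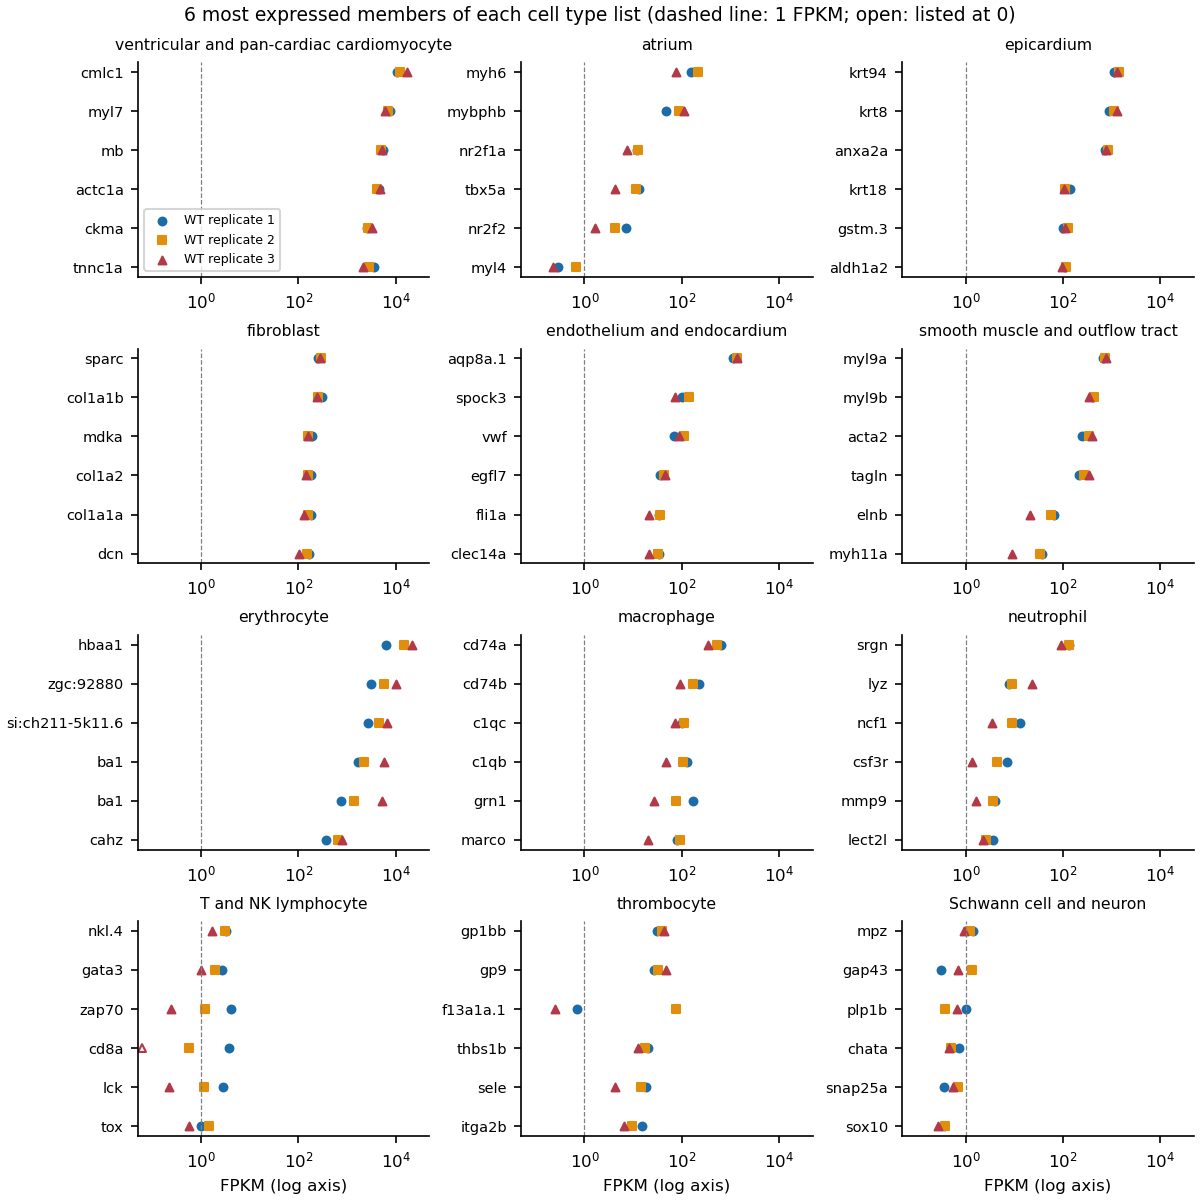
FPKM (horizontal axis, log scale) of the 6 most expressed members of 12 cell type lists, with WT replicates 1, 2 and 3 as separate symbols, a dashed line at 1 FPKM and open symbols for a value listed at 0. Cardiomyocyte and erythrocyte members lie highest, the macrophage members shown are lowest in replicate 3, and mpz, the highest of the Schwann cell and neuron members by mean, reaches 1.42 FPKM.

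Epicardium was led by structural genes. The keratins krt94 (1147, 1419 and 1335 FPKM) and krt8 (885, 1132 and 1314) and the membrane-binding protein anxa2a (738, 854 and 781) were among the more abundant transcripts of the ventricle, and the list took 0.708%, 0.785% and 0.676% of FPKM, or 0.249%, 0.262% and 0.196% without keratins. All 12 genes reached 1 FPKM in each library. The epicardial transcription factor tcf21 had 47.1, 64.9 and 63.7 FPKM, and the retinoic acid-synthesizing enzyme aldh1a2, which is induced in epicardium and endocardium of injured fish hearts, had 110.2, 115 and 98.1. Both kept to a narrow range, with tcf21 lowest in replicate 1, while tbx18 had 19, 19.9 and 7.51 FPKM, wt1b 10.9, 12.6 and 6.52, and wt1a 5.62, 7.29 and 3.48.

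Endothelium and endocardium were dominated by 1 gene. The water channel aqp8a.1 had 1152, 1372 and 1374 FPKM and supplied most of the list's 0.367%, 0.401% and 0.316%. Without it the list took 0.123%, 0.131% and 0.0764%. The next were spock3 (101, 144 and 72.9 FPKM) and von Willebrand factor vwf (69.1, 109.8 and 87.9). The VEGF receptors kdrl (25.8, 23.6 and 12.8 FPKM) and kdr (17.5, 13.8 and 4.88), and the junction protein cdh5 (24.7, 20.8 and 5.59) were lowest in replicate 3. Of the 25 genes of the list with at least 1 FPKM in each library, 20 had their lowest share there, beside 83.1% of all genes. After correction for gene length the whole endothelial list took 0.365%, 0.398% and 0.32%. As most of this is aqp8a.1, these values say little on kdrl, kdr and cdh5. The smooth muscle list was led by myl9a (685, 753 and 783 FPKM) and myl9b (417, 436 and 353). After them came acta2 (255, 340.2 and 409) and tagln (216, 273 and 342). As a whole this list took 0.378%, 0.392% and 0.35% of FPKM, lowest in replicate 3.

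Fibroblast genes and matrix were moderate. Fibrillar collagen was carried by col1a1b (302, 258 and 236 FPKM), col1a2 (179, 156 and 146) and col1a1a (181, 154 and 131), with the matricellular gene sparc at 258, 297 and 279 FPKM and dcn at 161, 153 and 101. Fibronectin fn1b, which is made by epicardium in injured fish hearts, had 210.1, 267 and 199 FPKM, the gelatinase mmp2 183, 210.4 and 145, and periostin postnb 92.9, 80.6 and 59.09. The fibronectin genes together took 0.0553%, 0.0592% and 0.0405% of FPKM, lowest in replicate 3, but 0.0436%, 0.0527% and 0.059% after correction for length, highest in replicate 3. Tenascin C (tnc) stayed low at 0.142, 0.187 and 0.285 FPKM. The whole collagen list took 0.251%, 0.197% and 0.125% of FPKM, lowest in replicate 3, and 22 of its 23 expressed genes had their lowest share there, beside 83.1% of all expressed genes. Collagens are long genes, and after correction for length the shares of the whole list were 0.212%, 0.183% and 0.161%. The 10 fibrillar collagen genes alone took 0.15%, 0.118% and 0.0921% before correction, lowest in replicate 3. After it they took 0.127%, 0.109% and 0.118%, lowest in replicate 2.

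Macrophage genes differed between libraries by more than the collagens. The list took 0.382%, 0.278% and 0.136% of FPKM (0.266% ± 0.123, SD, n = 3), a 2.8-fold range, and all 19 genes with at least 1 FPKM in each library had their lowest share in replicate 3, as did 83.1% of all genes at that level. The invariant chain gene cd74a had 646, 532 and 352 FPKM, the granulin grn1 174, 76.3 and 27, the scavenger receptor marco 79.6, 93.3 and 20.1, the macrophage perforin mpeg1.1 40.1, 36.69 and 12.5, and the receptor csf1ra 6.16, 3.42 and 1.09. Correction for gene length left these shares at 0.38%, 0.277% and 0.141%. Without replicate 3 the mean share was 0.33%.

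Antigen presentation genes showed the widest range of the functional lists. They took 0.536%, 0.356% and 0.171% of FPKM, a 3.13-fold range, and all 17 genes with at least 1 FPKM in each library had their lowest share in replicate 3, again beside 83.1% of all genes. Beta-2-microglobulin (b2m) had 529, 401 and 247 FPKM, the class II gene mhc2dab 282, 177 and 50.1, and the immunoproteasome subunit psmb8a 68.7, 32 and 19.6. After correction for length the shares were 0.519%, 0.352% and 0.182%, and the list partly overlaps the macrophage list through cd74a and cd74b. The transcription factor stat1a, which acts downstream of interferons, had 29, 18.8 and 4.8 FPKM.

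Other leukocytes left little signal. Of the neutrophil list 7 of 13 genes reached 1 FPKM in each library. Serglycin srgn, which is not restricted to neutrophils, led with 134, 132 and 91.4 FPKM, lyz had 7.96, 8.87 and 23.3, and the granule enzyme mpx stayed at 0.373 ± 0.021 FPKM (SD, n = 3). T and NK cell genes were low, with zap70 at 3.98, 1.18 and 0.235 FPKM, lck at 2.77, 1.14 and 0.215, and cd8a at 3.67, 0.544 and 0. Thrombocyte genes gp1bb (31, 38.65 and 43.3 FPKM) and gp9 (26.9, 33.4 and 47.7) were clearly present. Of the 10 genes in their list, 7 reached 1 FPKM in each library. Among these 7, 5 had their lowest share in replicate 3, beside 83.1% of all genes at that level. The list took 0.0278%, 0.0403% and 0.0212% of FPKM. Its higher value in replicate 2 depended on 1 member, f13a1a.1, which held 0.000151%, 0.0148% and 4.3e-05% of FPKM in replicates 1, 2 and 3. Complement was led by cfd (factor D) with 915, 1457 and 1432 FPKM.

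The regulators that the study addressed covered a wide span of levels. Gridlock (grl, the gene hey2) is a repressor of the Hairy-related family that shapes the developing aorta and restrains ventricular growth. It had 9.4, 7.04 and 4.66 FPKM and ranked 5207 of all genes by mean. Its relatives hey1 and heyl were below 1 FPKM in every library (at most 0.944 and 0.453), so that hey2 made up 87.1%, 90.4% and 92.8% of the family. The lysine methyltransferase smyd2a had 12.7, 11.04 and 9.66 FPKM and smyd2b 4.13, 5.73 and 4.13 (log2 ratio 1.104, SE 0.18; limma, adjusted p = 0.0011). The muscle member of this family, smyd1b, which is needed for myosin folding and sarcomere assembly, was far higher, at 89.9, 53.2 and 81.3 FPKM, or 4.82 to 8.41 times smyd2a, while its copy smyd1a had 0.198 ± 0.0716 (SD, n = 3).

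Signalling genes covered a wide range of levels. Signal transducer stat3 had 18, 13.7 and 5.26 FPKM and lay below stat4 (28.5, 21.7 and 19.9 FPKM) in every library. Of its feedback inhibitors, socs3b had 11.2, 9.21 and 14.5 FPKM, whereas the genes both named socs3a had 135, 176 and 146 FPKM on chromosome 3 and 133, 167 and 132 on chromosome 20. Cyclin ccnd1 had 3.97, 3.37 and 1.46 FPKM, below ccnd2a in each library, the survival gene bcl2a had 3.9, 2.65 and 0.948, znf326 had 3.04, 2.0 and 1.97, and opn3 1.4, 3.1 and 2.53.

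Proliferation genes were detected at low level. Of 43 replication and mitosis genes found, 27 reached 1 FPKM in each library, and together they took 0.0425%, 0.0388% and 0.0237% of FPKM. The replication clamp pcna led with 40.02, 45.56 and 31.8 FPKM and the mitotic ubiquitin carrier ube2c followed with 14.4, 14.5 and 13.2, while the proliferation marker mki67 had 2.16, 1.54 and 0.309. Of 86 genes in a hand-made list of heart regeneration genes, 62 reached 1 FPKM in each library. They were led by ybx1 (598, 568 and 505 FPKM), fn1b, the growth factor midkine mdka (186, 155 and 157) and socs3a. The cardiomyocyte mitogen nrg1 was low (0.215, 0.258 and 0.0595 FPKM), and its receptor gene erbb2 had 4.75, 3.82 and 1.02.

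The spread between the 3 pools was described with edgeR's biological coefficient of variation (BCV), the relative spread of a gene's level between libraries beyond counting noise. The method draws each gene's value toward that of genes of similar level, so differences between genes and lists are damped. For f13a1a.1 it gave 1.25, where DESeq2 gave 2.04. The common BCV was 0.298 over 14351 genes, and 0.179 without replicate 3, against 0.302 without replicate 1 and 0.382 without replicate 2. The median BCV was 0.499 for the 7 haemoglobin genes, 0.4 for erythrocyte genes, 0.341 for antigen presentation and 0.344 for ribosomal proteins, beside 0.278 for all 14351 genes. With offsets for gene length these medians were 0.414, 0.388, 0.373 and 0.296, beside 0.266. BCV rests on counts scaled by TMM factors (1.16, 1.08 and 0.798 in replicates 1, 2 and 3), not on shares of FPKM. The scales rank lists differently: by share, ribosomal proteins ranged 1.17-fold and antigen presentation 3.13-fold. Without length offsets, the median BCV was 0.263 for the proteasome and 0.274 for endothelial genes.

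Of the genes averaging 20 FPKM or more, 2157 had enough reads in every library to enter the BCV estimate. A few of these stood far apart in a single library. Genes listed at 0 in a library, such as mt-co1 and mt-atp6, did not enter it. The coagulation factor subunit f13a1a.1 had 0.716, 75.3 and 0.245 FPKM (38, 3688 and 13 counts; BCV 1.25) and was thus almost confined to replicate 2. An ALKBH3-named gene (ENSDARG00000097208) had 60.5, 86.7 and 1.06 FPKM and was thus low in replicate 3. It overlaps a gene named alkbh3, and si:ch73-106k19.4, grn2 and fosab overlap other genes too, so their separate values are uncertain. Highest in replicate 1 were si:ch73-106k19.4 (54.6, 3.79 and 4.66 FPKM; no function given in the files), the unnamed ENSDARG00000102514 (55.6, 17.6 and 1.62; a CXC chemokine, cxcl11.3, in the gene name table), the chemokine ccl34b.4 (82.6, 27.4 and 7.04) and grn2 (69.1, 21.7 and 6.32). Highest in replicate 3 were the immediate early gene fosab (32.3, 13.6 and 68), ankrd9 (70.17, 72.1 and 237) and the growth factor-binding protein igfbp1a (40.54, 102.3 and 183). The remaining members of the 15 with the highest BCV were mt-atp8, mt-nd6 (29.6, 428 and 101 FPKM), a ba1 gene, si:ch211-217k17.11, and the IDs ENSDARG00000086881 and ENSDARG00000038424.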

How the data were processed

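Libraries were made with the TruSeq RNA kit from pooled ventricles. Per the study's methods and the processing notes, the authors filtered reads with Seqtk (adapter and ribosomal RNA reads removed), aligned them with HISAT2 2.0.4 to GRCz10 and derived FPKM with StringTie 1.3.0. The deposited table holds whole-number counts per gene, whose counting program and strand setting are not given in the sources used here, and the authors' FPKM values, from which gene lengths were recovered. Overlapping genes may therefore share reads.

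Only the 3 WT libraries were analysed. Members and all gene lists were chosen with earlier results of these data known. List members were matched by symbol (747), pattern (481), identifier (43) or synonym (5). The text names the 20 genes with the highest mean, leading members of each list and family, the 10 largest and the near-equal a/b pairs, the 15 genes with the highest spread (BCV), and genes the study names; other genes, mainly lower-ranked list members, were chosen after their values were seen. Copies were compared with limma 3.58.1 (pseudocount 1 FPKM, Benjamini-Hochberg over 1858 pairs). BCV was estimated with edgeR 4.0.16 (TMM) over the genes that passed its filter for reads in every library. DESeq2 1.42.0 dispersions, other pseudocounts and filters, and left-out libraries were alternatives. Both procedures were tested on simulated data. Further alternatives, namely the gene length correction of shares, gene length offsets for BCV and the restriction of pairs by description, were chosen after seeing the data. The limit of 3 reads covers counting error only.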

Additional observations from a re-analysis of the deposited data

How the results depend on the processing

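No paired analysis was possible because 1 group of libraries was analysed, so no groups share replicate numbers in a comparison. As a mean share of reads in place of FPKM, haemoglobins took 4.89%, ribosomal proteins 10.2%, the mitochondrial genome 3.26%, the respiratory chain 4.46%, glycolysis 3.61%, collagens 0.682%, endothelium 0.428% and epicardium 0.921%. Haemoglobins, at 11.4% above the sarcomere's 7.73% by FPKM, were thus below its 7.9% by reads. Without the mitochondrial genome the respiratory chain took 7.92% and glycolysis 3.02%. With each library left out in turn, the mean shares ranged from 8.85% to 13.7% for haemoglobins, 7.31% to 8.07% for the sarcomere, 15.1% to 16.4% for ribosomal proteins, 0.207% to 0.33% for macrophage genes, 0.264% to 0.446% for antigen presentation and 0.161% to 0.224% for collagens. The common BCV ranged from 0.179 to 0.382, with the lowest value without replicate 3, and was 0.283 with gene length offsets. The number of a/b pairs called ranged from 1162 to 1207 with a library left out, was 1329 with a pseudocount of 0.1 FPKM, and fell to 554 of 1102 (50.3%) where both copies had to average 1 FPKM. The genes with at least 1 FPKM in each library numbered 10912, and 12838 without replicate 3. The fibronectins went from lowest to highest in replicate 3 with the correction for gene length. The fibrillar collagens went from lowest in replicate 3 to lowest in replicate 2. None of the 10 called a/b pairs with the largest ratios changed direction, but ratios of that size could hardly do so. The direction of the other named pairs was not followed across these settings. Levels under about 0.2 FPKM for a gene of 1 kb are below the limit that 3 reads set.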
